A study of Mus musculus with 20 samples.

Results

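The 9 genes described here are long RNAs that carry small nucleolar RNAs (snoRNAs) in their introns. They are 2410006H16Rik, 1110038B12Rik, Gas5, Snhg1, Snhg3, Snhg5, Snhg6, Snhg8 and Snhg12, and they were taken by symbol from a table of 24421 gene symbols. The list was drawn up with the genotype difference at day 10 in view, and day 5 values enter the difference between the days, which was known too. Values and calls of the 9 genes are therefore a description and no independent evidence. No p-value is printed for a single host, and intervals or thresholds passed by a host belong to that description. The study asked how the adult mouse kidney responds to loss of fumarate hydratase, the enzyme of the tricarboxylic acid cycle that is encoded by Fh1. RNA from small pieces of snap-frozen kidney was sequenced, and the part of the kidney in a piece is not given. There were 4 groups of 5 libraries: Fh1-/- at day 5, Fh1+/+ at day 5, Fh1-/- at day 10 and Fh1+/+ at day 10. All mice were of a mixed C57BL/6 and 129/SvJ background and 12 weeks old, and all received 3 injections of 2 mg tamoxifen every other day. Fh1-/- mice carried floxed Fh1 on both alleles together with R26 CreERT2, a tamoxifen-activated Cre under the ubiquitous Rosa26 promoter, which removes exons 3 and 4. Fh1+/+ littermates carried CreERT2 and intact Fh1, so Cre and tamoxifen were common to all groups. The labels give no animal for a library, and p-values therefore measure the spread between libraries.

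snoRNAs guide the chemical modification of ribosomal RNA. Box C/D snoRNAs direct 2′-O-methylation and box H/ACA snoRNAs direct pseudouridylation, and a few take part in the cleavage of the ribosomal RNA precursor. In mammals most of them are cut out of introns, so a host gene is transcribed both for its snoRNAs and for its spliced exons. The spliced exons of the genes named Snhg mostly encode no conserved protein. Many host RNAs start with a run of pyrimidines (5′ terminal oligopyrimidine, TOP), a feature shared with the mRNAs of ribosomal proteins, and several are degraded by nonsense-mediated decay once ribosomes engage them. The libraries were made from polyadenylated RNA, so the counts below are of spliced or unspliced host RNA and only by exception of a snoRNA.

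The annotated start sites are shown because the TOP run, if present, lies there. Of the 9 symbols 8 matched. Each line gives 30 bases around a start in RefSeq, sense strand, 5′ to 3′, on GRCm38.p6. Capitals mark a C followed by 4 or more bases that are each C or T, beginning within 10 bases of the annotated start.
2410006H16Rik, chr11:62602862-62602891: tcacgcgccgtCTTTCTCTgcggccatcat
1110038B12Rik, chr17:34952454-34952483: gggcggcacacgggtCTCTTTgtgcacccg
Gas5, second start, chr1:161035151-161035180: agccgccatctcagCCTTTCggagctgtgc
Snhg1, chr19:8723472-8723501: gttgttcttgtcggcctcatttttccttgt
Snhg3, chr4:132353672-132353701: tagtcgaccacgcctgaCTTCCgggcgtta
Snhg5, chr9:88522883-88522912: gagctgcggtgaaccgggctcgttCTTTTa
Snhg8, chr3:123508322-123508351: gcaccgttcagaagtCTCTTTggctgcgat
Snhg12, chr4:132308663-132308692: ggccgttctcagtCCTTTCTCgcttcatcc

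Such a run was found in 7 of the 8 host genes with a sequence, against 34.4% of 27025 genes with a start window, so the rule is a loose one. Counted by window, 8 of 10 host windows held it (80%), against 30.7% of 32851 windows in all. Among ribosomal protein genes it was found in 24 of 38, and among 13 further non-coding snoRNA hosts in 5. Snhg1 lacked it, and so did the first of the 2 annotated starts of Gas5. The run reached from 5 bases in Snhg3 and Snhg5 to 8 bases in 2410006H16Rik and Snhg12. The letters CACGTG, searched on both strands from 250 bases before to 50 bases after the start, were found in 0 of the 8 genes and in 8.09% of all genes. These are matches of letters in an annotated window, and no start was measured.

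On GRCm38 with GENCODE vM21 the 9 genes hold 32 snoRNA loci on their own strand. Gas5 (chromosome 1, 161034422 to 161038539, plus strand) holds 9, counting a locus that is annotated as a snoRNA but named Mir5117, and Snhg1 (chromosome 19, 8723475 to 8726443, plus) holds 8, among them Snord22. 2410006H16Rik (chromosome 11, 62602877 to 62604807, plus) holds Snord49b, Snord49a and Snord65. 1110038B12Rik (chromosome 17, 34950238 to 34952471, minus) holds 2 loci, among them Snord52. Snhg5 (chromosome 9, 88521050 to 88522929, minus) carries Snord50a and Snord50b, and Snhg6 (chromosome 1, 9941959 to 9944118, minus) carries Snord87. These 6 are box C/D hosts as far as their snoRNAs are named. Snhg3 (chromosome 4, 132348014 to 132353686, minus) carries Snora73a and Snora73b, the H/ACA snoRNAs known as U17 that are needed for cleavage of the ribosomal RNA precursor. Snhg8 (chromosome 3, 123507552 to 123508404, minus) carries the H/ACA snoRNA Snora24. Snhg12 (chromosome 4, 132308623 to 132311024, plus) carries both kinds, Snora16a, Snora44, Snora61 and Snord99. Gas5 and Snhg6 share chromosome 1 with the floxed gene, at 14.6 and 165.7 Mb from Fh1, and the other 7 hosts are on other chromosomes.

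The 20 libraries held 16654829 to 25001294 counted reads. Within a group, pairs of libraries differed by far more than counting noise (chi-square per degree of freedom 7.92 to 401 over 40 pairs), so none was a copy of another. The Fh1-/- day 10 libraries 1 and 3 stood apart on the first principal component, which held 42.7% of the variance. Values without libraries 1 and 3 are given for the host genes and for some other genes. These libraries also had the lowest summed proximal tubule markers, 3988 and 4205 CPM (counts per 1000000 reads, normalised), against 11689 to 15315 CPM in the other 3 Fh1-/- libraries and 12731 to 16470 CPM in the Fh1+/+ libraries of day 10. Whole-gene Fh1 counts do not check the genotype, since exons outside the deletion are counted too. Fh1 lay at 200 to 239 CPM in Fh1-/- and 219 to 265 CPM in Fh1+/+ kidneys at day 5, and at 249 to 421 CPM in Fh1-/- and 224 to 258 CPM in Fh1+/+ kidneys at day 10. Below, Fh1-/- stands for the libraries labelled so. Levels of Y-linked transcripts split the libraries unevenly, low in 2 of 5 Fh1-/- and 1 of 5 Fh1+/+ libraries at day 5 and in 3 of 5 Fh1-/- and 2 of 5 Fh1+/+ libraries at day 10.

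All 9 host genes passed the filter on low counts in every comparison, with 21 (Snhg5) to 1579 (Gas5) reads in a library. Their summed level was 72.8 to 87.5 CPM in Fh1-/- and 80.2 to 101.7 CPM in Fh1+/+ kidneys at day 5, and 169 to 305 CPM in Fh1-/- and 83.8 to 127 CPM in Fh1+/+ kidneys at day 10. Each of the 5 Fh1-/- day 10 libraries lay above the other 15. Their mean was 234 ± 53.7 CPM (SD, n = 5), and 223 ± 72.5 CPM (SD, n = 3) without libraries 1 and 3. In RNA of tissue pieces, fewer cells of a type and less RNA per cell cannot be told apart, and the same holds for more of either.

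**Figure D1:**
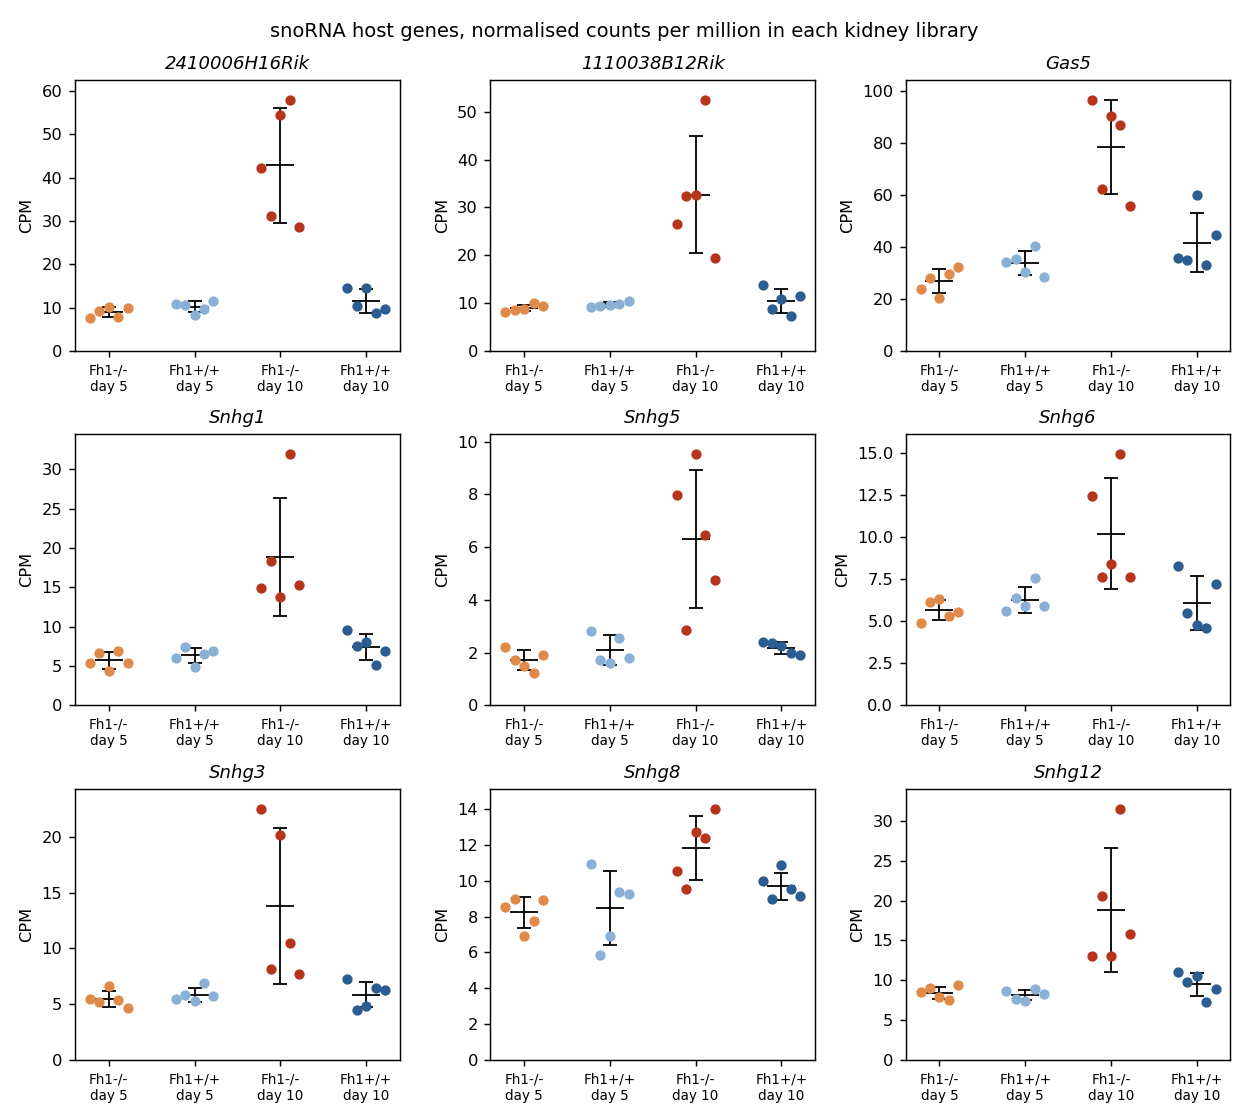
Normalised CPM (vertical axes, each starting at 0) of the 9 snoRNA host genes in the 5 libraries of each group. Points are libraries in order of replicate number and the bars are the mean and SD. The Fh1-/- day 10 points of 2410006H16Rik (28.6 to 58.0 CPM) lie clear of all other points, whereas those of Snhg8 overlap with the Fh1+/+ day 10 points.

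The plot of every library shows the day 5 groups close together and a wide spread in Fh1-/- kidneys at day 10. Per kilobase of annotated exon, 2410006H16Rik was the most abundant host in Fh1+/+ kidneys of both days, at 23.5 ± 4.64 CPM per kb (SD, n = 10), and did not overlap with the next gene. Snhg8 (10.7 ± 1.88 CPM per kb) and Gas5 (10.0 ± 2.43 CPM per kb) overlapped with each other. Snhg3 followed at 5.93 ± 0.89 CPM per kb, below each Gas5 value but overlapping with the lowest Snhg8 value. From there each gene overlapped with the next in order, through 1110038B12Rik, Snhg6, Snhg12 and Snhg1 down to Snhg5 at 1.24 ± 0.23 CPM per kb. In Fh1-/- kidneys at day 10, 2410006H16Rik again led without overlap, at 92.7 ± 28.7 CPM per kb (SD, n = 5). Gas5 at 20.9 ± 4.81 and 1110038B12Rik at 18.1 ± 6.81 CPM per kb came next, and Snhg8 was lower in the order, at 13.9 ± 2.10 CPM per kb. Lengths are unions of annotated exons, including retained introns, and understate the level per length of a gene whose main isoform is short. They were taken from GENCODE vM21, whereas the study names another GENCODE release for its counts, so the exons counted can differ. The annotation gives 2410006H16Rik 1 transcript with 462 exon bases and Gas5 25 transcripts with 3760, so the order rests in part on annotation.

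At day 5 the host genes lay close between the genotypes. In Fh1-/- kidneys 8 of the 9 lay slightly below Fh1+/+ kidneys, with a median log2 difference of -0.16, against -0.01 over 14404 genes tested. By edgeR's quasi-likelihood test 0 of 9 were called (adjusted p under 0.01 and a log2 difference over 0.58 in either direction), where 0.0347% of all genes were. DESeq2 also called 0 of 9, beside 0.215% of all genes. A list drawn up on a difference that grew by day 10 may favour low day 5 values, so these counts are read no further. At an unadjusted p under 0.05, 1 of 9 passed, Gas5, in the lower direction that 2.37% of all genes took.

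Gas5, which was found as a transcript that accumulates in growth-arrested cells, had 23.8, 28.2, 20.5, 29.5 and 32.5 CPM in Fh1-/- and 34.3, 35.5, 30.3, 40.2 and 28.4 CPM in Fh1+/+ kidneys at day 5. The groups overlapped. Its log2 difference was -0.34 (95% interval -0.63 to -0.04). Snhg5 followed at -0.30, with a wide interval of -0.82 to 0.22. 2410006H16Rik had 8.90 ± 1.20 CPM in Fh1-/- and 10.2 ± 1.21 CPM in Fh1+/+ kidneys. Its log2 difference was -0.20 (95% interval -0.48 to 0.08). Snhg12, the gene with a positive value, stood at 0.04 (95% interval -0.19 to 0.28). Over the 9 genes the upper bounds of the intervals ran from -0.04 for Gas5 to 0.33 for Snhg8.

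At day 10 each of the 9 genes was on average higher in Fh1-/- kidneys, with log2 differences of 0.27 (Snhg8) to 1.87 (2410006H16Rik) and a median of 1.22, against -0.00 over 14360 genes. Among all genes 3.38% had a value at or above that median. Because the list was chosen on this contrast, these values and the calls below describe it and support nothing further. edgeR called 0 of the 9, beside 0.0557% of all genes. DESeq2 at the same thresholds called 7, those other than Snhg6 and Snhg8, beside 3.49% of all genes in that direction. In 6 of the 9 the groups did not overlap, which held in the higher direction for 4.42% of all genes. An unadjusted p under 0.05 was reached by 8 of the 9, beside 15.1% of all genes in the higher direction.

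**Figure D2:**
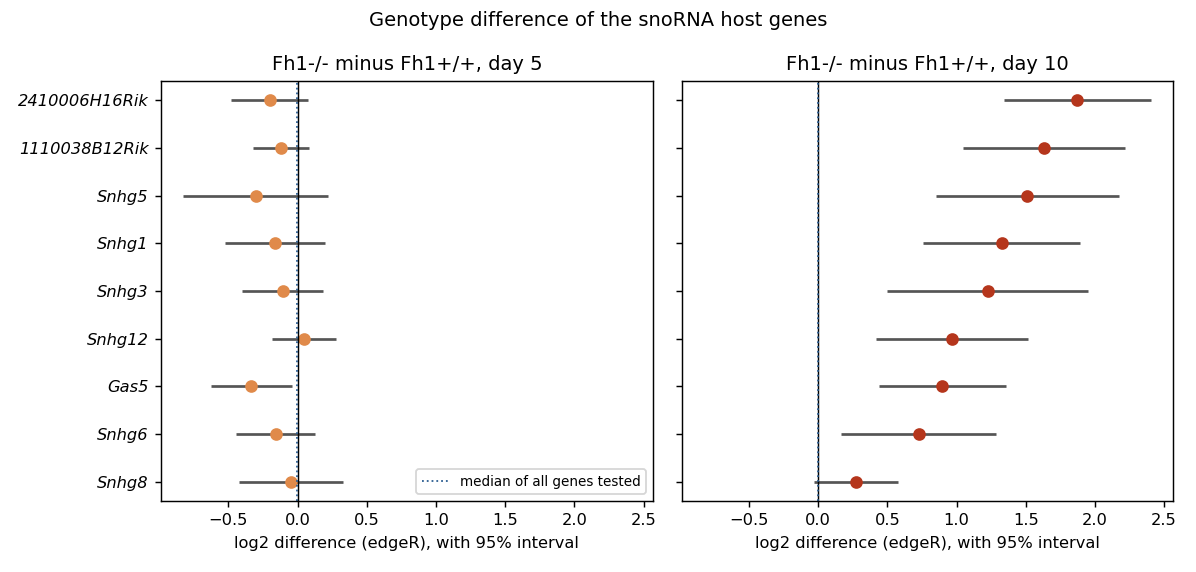
Log2 difference of Fh1-/- minus Fh1+/+ kidneys (horizontal axis) for each host gene, at day 5 (left panel) and day 10 (right panel). Lines are 95% intervals derived from the edgeR test, and the dotted line is the median of all genes tested. Day 5 values lie between -0.34 and 0.04, and day 10 values between 0.27 and 1.87 with the order of the genes set by day 10.

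In the panels of log2 differences, the day 5 intervals of 8 genes include 0. 2410006H16Rik had 42.2, 31.1, 54.4, 58.0 and 28.6 CPM in Fh1-/- kidneys at day 10, against 14.5, 10.3, 14.5, 8.83 and 9.55 CPM in Fh1+/+ kidneys. The lowest Fh1-/- library lay well above the highest Fh1+/+ library. Its log2 difference was 1.87 with a standard error of 0.24, which is 3.66-fold. 1110038B12Rik, the host of Snord52, had 26.5, 32.3, 32.7, 52.5 and 19.4 CPM in Fh1-/- kidneys, against 13.8, 8.74, 10.8, 7.22 and 11.4 CPM in Fh1+/+ kidneys. Its groups did not overlap, and Fh1-/- library 4 was highest. The log2 difference was 1.63 (standard error 0.26).

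Gas5 had the most reads of the 9 genes. It stood at 96.8, 62.6, 90.6, 86.9 and 56.0 CPM in Fh1-/- kidneys at day 10, against 35.9, 34.8, 60.1, 32.9 and 44.8 CPM in Fh1+/+ kidneys. The groups overlapped through Fh1-/- library 5 and Fh1+/+ library 3. Its log2 difference was 0.90 (standard error 0.21). Snhg1, the host of Snord22, had 14.9, 18.3, 13.7, 31.9 and 15.3 CPM in Fh1-/- and 9.58, 7.49, 8.01, 5.08 and 6.87 CPM in Fh1+/+ kidneys. The groups did not overlap, and Fh1-/- library 4 lay far above the other 4. The log2 difference was 1.33 (standard error 0.26).

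Snhg5 was the least abundant host, at 7.97, 2.87, 9.53, 6.45 and 4.77 CPM in Fh1-/- kidneys at day 10 and 2.41, 2.36, 2.27, 1.98 and 1.90 CPM in Fh1+/+ kidneys. Fh1-/- library 2 lay just above the Fh1+/+ libraries. The log2 difference was 1.51 (standard error 0.30). Snhg6, the host of Snord87, had 12.4, 7.59, 8.39, 14.9 and 7.65 CPM in Fh1-/- kidneys, against 8.30, 5.50, 4.75, 4.60 and 7.20 CPM in Fh1+/+ kidneys. Here 2 Fh1-/- libraries, 2 and 5, lay below the highest Fh1+/+ library, and the log2 difference was 0.73 (standard error 0.25).

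Of the H/ACA hosts, Snhg3 had 22.6, 8.16, 20.2, 10.5 and 7.74 CPM in Fh1-/- kidneys at day 10, against 7.22, 4.49, 4.86, 6.42 and 6.25 CPM in Fh1+/+ kidneys. The groups did not overlap, but the high values were those of Fh1-/- libraries 1 and 3. Its log2 difference of 1.22 (standard error 0.33) was 0.59 without these libraries. Snhg8 had 10.5, 9.56, 12.7, 12.4 and 14.0 CPM in Fh1-/- and 9.99, 8.97, 10.9, 9.52 and 9.16 CPM in Fh1+/+ kidneys. The groups overlapped, and the log2 difference of 0.27 had an interval of -0.03 to 0.57. Snhg12, which carries both kinds of snoRNA, had 13.1, 20.6, 13.1, 31.6 and 15.8 CPM in Fh1-/- and 11.0, 9.76, 10.5, 7.28 and 8.93 CPM in Fh1+/+ kidneys. Its groups did not overlap, and the log2 difference was 0.97 (standard error 0.25).

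The 5 Fh1-/- day 10 libraries did not rank the host genes alike. Relative to the Fh1+/+ day 10 mean, the median ratio of the 9 genes was 2.32, 1.50, 2.17, 2.96 and 1.67 in libraries 1 to 5. Library 4 held the highest value of 5 genes, namely 2410006H16Rik, 1110038B12Rik, Snhg1, Snhg6 and Snhg12. Snhg3 averaged a ratio of 3.65 in libraries 1 and 3 and 1.50 in libraries 2, 4 and 5. Snhg5 averaged 4.01 in libraries 1 and 3 and 2.15 in the other 3. For Snhg12 the order was the opposite, with 1.38 in libraries 1 and 3 and 2.39 in the other 3, and likewise for Snhg1, with 1.93 and 2.95. The remaining 5 genes differed less between these sets of libraries, by 0.85 times (1110038B12Rik) to 1.37 times (Gas5). Snhg3 and Snhg12 lie close to each other on chromosome 4, on opposite strands.

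**Figure D3:**
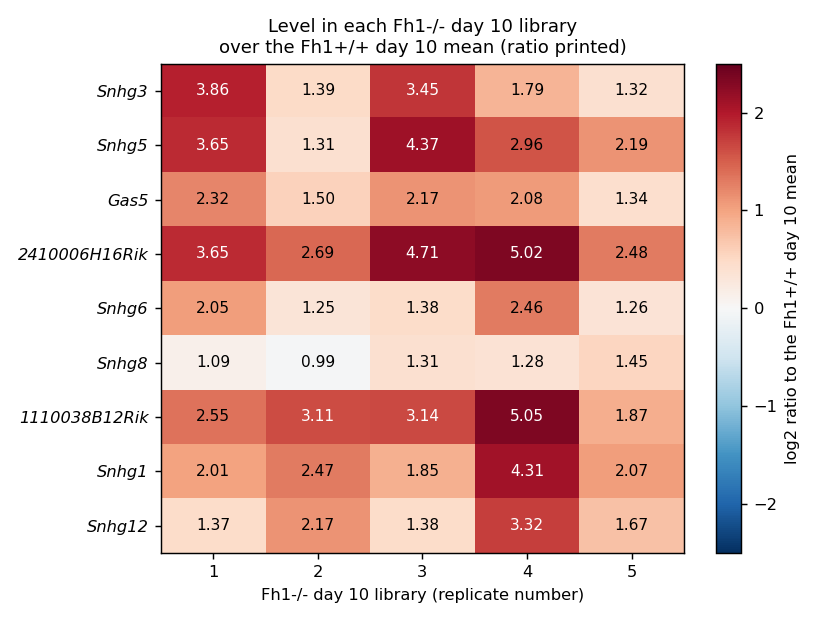
Ratio of each Fh1-/- day 10 library (columns, replicate number) to the Fh1+/+ day 10 mean for each host gene (rows), with the ratio printed and coloured on a log2 scale. Rows run from the gene with the highest level in libraries 1 and 3 relative to the other 3 (Snhg3, 3.86 and 3.45 in libraries 1 and 3) to the gene with the lowest (Snhg12, 1.37 and 1.38).

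The grid of ratios shows this split by gene. Without libraries 1 and 3 the log2 differences at day 10 were 1.76 for 2410006H16Rik, 1.73 for 1110038B12Rik, 1.55 for Snhg1 and 1.25 for Snhg12. They were 1.10 for Snhg5, 0.72 for Snhg6, 0.71 for Gas5 and 0.31 for Snhg8. The 9 genes kept a positive sign, with a median of 1.10. Libraries 1 and 3 are also among the 3 Fh1-/- day 10 libraries with low Y-linked transcripts. Among libraries with low Y-linked transcripts, the ratio of the Fh1-/- to the Fh1+/+ day 10 mean was 3.36 for 2410006H16Rik, 3.60 for Snhg3 and 1.38 for Snhg12. Among libraries with high Y-linked transcripts it was 4.06 for 2410006H16Rik, 1.41 for Snhg3 and 2.87 for Snhg12. The cause of these differences was not tested. With Y-linked transcripts as a covariate, a run chosen after seeing the data, the median log2 difference of the 9 genes at day 10 was 1.15. It was 1.22 as reported.

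From day 5 to day 10 the genotype difference grew on average for each of the 9 genes. The genotype difference at day 10 minus that at day 5 was 2.07 on the log2 scale for 2410006H16Rik (standard error 0.28), 1.81 for Snhg5, 1.74 for 1110038B12Rik and 1.48 for Snhg1. It was 1.32 for Snhg3, 1.23 for Gas5, 0.92 for Snhg12, 0.88 for Snhg6 and 0.31 for Snhg8. The list was chosen with these differences known, so the calls are again a description. edgeR called 1 of 9, 2410006H16Rik, beside 0.0335% of all genes, and DESeq2 called 5 in the higher direction, beside 1.33% of all genes. Without Fh1-/- day 10 libraries 1 and 3 edgeR called 0 of 9. In Fh1+/+ kidneys, day 10 minus day 5 gave a median of 0.18 over the 9 genes, within a range of -0.04 to 0.31, and 0.01 over 14501 genes. edgeR called 0 of the 9, beside 0% of all genes, and DESeq2 likewise 0 of 9, beside 0%. An unadjusted p under 0.05 was reached by 0 of 9, beside 3.97% of all genes. The day 10 Fh1+/+ libraries enter each of these comparisons and that at day 10, so their values are not independent.

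Several host genes start close to a protein-coding gene. Slc3a2, which encodes the heavy chain of several amino acid transporters, starts 106 bases from Snhg1 on the opposite strand. It stood at 489, 314, 541, 326 and 274 CPM in Fh1-/- kidneys at day 10, against 208, 280, 216, 164 and 147 CPM in Fh1+/+ kidneys. The groups overlapped slightly, and the log2 difference was 0.92 (standard error 0.24, adjusted p = 0.064 by edgeR and 0.0049 by DESeq2). Libraries 1 and 3 were the highest for Slc3a2 but not for Snhg1, whose highest was library 4.

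Rcc1, which encodes the nucleotide exchange factor of the GTPase Ran, starts 81 bases from Snhg3 on the same strand and shares exons with it, so reads of these genes cannot be fully told apart. Rcc1 had 29.5, 13.5, 31.4, 12.3 and 10.5 CPM in Fh1-/- kidneys at day 10, against 13.0, 15.1, 13.8, 16.3 and 14.9 CPM in Fh1+/+ kidneys. As for Snhg3, libraries 1 and 3 were high. Unlike Snhg3, the other 3 Fh1-/- libraries lay within or below the Fh1+/+ range. Its log2 difference was 0.40 (standard error 0.31, adjusted p = 0.41 by edgeR) and -0.27 without libraries 1 and 3. Zbtb37 starts 427 bases from Gas5 on the opposite strand, overlaps none of its exons and had a log2 difference of 0.30 (adjusted p = 0.47 by edgeR). Mcmdc2 overlaps exons of Snhg6 on the opposite strand and stayed under 1 CPM in each day 10 library, too low to be tested.

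**Figure D4:**
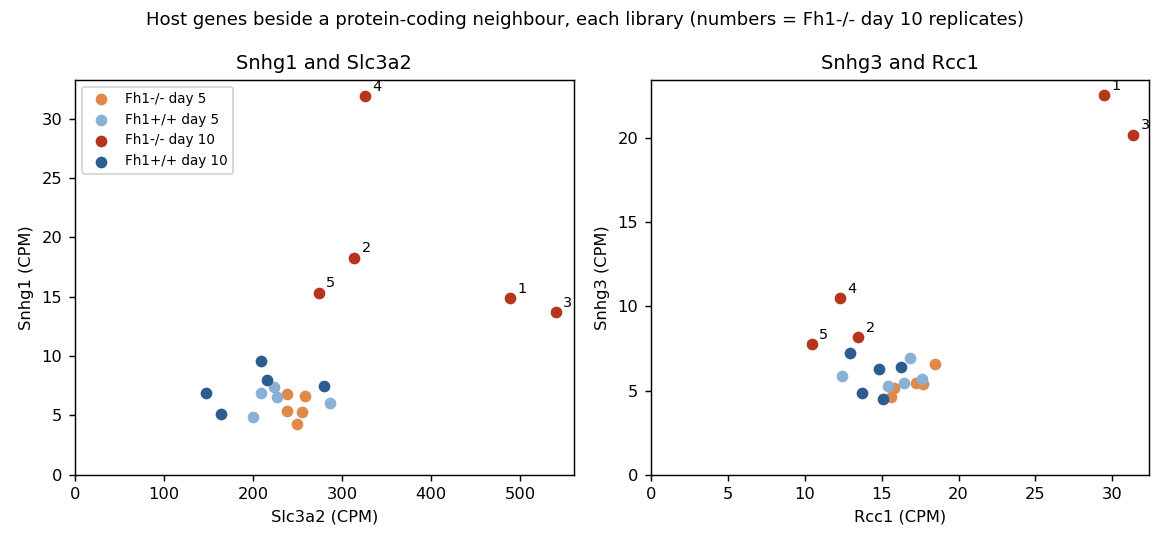
Level of Snhg1 against Slc3a2 (left) and of Snhg3 against Rcc1 (right) in each of the 20 libraries, in normalised CPM, both axes starting at 0. Numbers mark the Fh1-/- day 10 libraries. Libraries 1 and 3 have the highest Slc3a2, Snhg3 and Rcc1 levels, and library 4 has the highest Snhg1 level.

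The plot of neighbouring genes places Fh1-/- libraries 2, 4 and 5 above the other groups in Snhg3 but not in Rcc1. The snoRNAs themselves were barely seen. Of the snoRNA loci inside the 9 hosts, 12 had a row of counts, with 666 reads over all 20 libraries and at most 23 reads in a library. Snord22 had 54 reads in the Fh1-/- and 27 in the Fh1+/+ libraries of day 10, and Snord65 had 17 and 2 reads in the same order. Snora61 had 35 reads in each of these groups. Reads of this kind come from polyadenylated RNA and do not measure the mature snoRNA, which lacks a poly(A) tail.

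Other genes of the pathway were read from lists, again chosen with earlier results known. Their counts at day 10 stand beside shares of all genes of 3.49% called higher by DESeq2, 4.42% higher without overlap and, at an unadjusted p under 0.05, 15.1% in the higher and 11.9% in the lower direction. edgeR called 0.0557% of all genes, and DESeq2 called 295 of 14360 genes lower. Of 15 further non-coding hosts listed, 13 were tested at day 10, with a median log2 difference of 0.48 and 9 above 0. edgeR called 0 and DESeq2 called 3 higher and 0 lower, and 5 reached an unadjusted p under 0.05. Epb4.1l4aos had 20.4 ± 5.69 CPM in Fh1-/- and 7.07 ± 1.92 CPM in Fh1+/+ kidneys, a log2 difference of 1.51 (adjusted p = 0.021 by edgeR and 6.6e-07 by DESeq2). 1810032O08Rik, the row of Snhg16, differed by 1.16 and 1500012F01Rik, the row of Zfas1, by 1.12, with adjusted p = 0.049 and 0.050 by edgeR. These 3 did not overlap between the groups. The highest value of the list, 3.12 for D17H6S56E-5 with an adjusted p of 0.085, came from a row that RefSeq annotates as protein coding. Its levels ran from 16.3 to 463 CPM in Fh1-/- and from 7.93 to 37.3 CPM in Fh1+/+ kidneys. Without it the median of the other 12 was 0.37.

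The 25 protein-coding snoRNA hosts, most of them genes of ribosomal proteins or of translation and nucleolar factors, had a median of 0.45, and 23 lay above 0. edgeR called 0 and DESeq2 1, Taf1d, a subunit of the RNA polymerase I factor SL1, which had 12.0 ± 3.42 CPM in Fh1-/- and 6.07 ± 1.04 CPM in Fh1+/+ kidneys. An unadjusted p under 0.05 was reached by 13 in the higher and 0 in the lower direction. The groups of 2 of the 25 did not overlap, in the higher direction. Ncl, the gene of nucleolin, differed by 0.45 without overlap (adjusted p = 0.073 by edgeR), and Rpl4, of the large ribosomal subunit, by 0.48 (adjusted p = 0.089).

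The core proteins that bind snoRNAs had medians of 0.39 (4 of box C/D) and 0.10 (4 of box H/ACA). Of the box C/D core, Nhp2l1, the row of Snu13, differed by 0.60, Nop58 by 0.58, Nop56 by 0.20 and Fbl, the methyltransferase fibrillarin, by 0.01. Of the H/ACA core, Gar1 differed by 1.03 (adjusted p = 0.15 by edgeR) and Dkc1, the pseudouridine synthase dyskerin, by 0.19, with Nop10 at 0.00 and Nhp2 at -0.08. Gar1 ran from 6.39 to 26.4 CPM (mean 14.9, SD 10.3) in Fh1-/- and from 6.13 to 8.13 CPM (mean 7.19, SD 0.82) in Fh1+/+ kidneys. Leaving out single libraries put its difference between 0.73, without Fh1-/- day 10 library 3, and 1.24. Such omissions do not remove Fh1-/- libraries 1 and 3 together. edgeR and DESeq2 called 0 of these 8, and of the 8 only Nop58 and Gar1 reached an unadjusted p under 0.05. Among 11 assembly factors the median was 0.16 with 0 called by either tool, led by Shq1 at 0.84, Nufip1 at 0.51 and Nolc1 at 0.41, which reached an unadjusted p under 0.05.

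The nonsense-mediated decay factors, which degrade several host RNAs, ran from -0.14 to 0.44 over 12 genes with a median of 0.05. edgeR and DESeq2 called 0 of them, and 0 reached an unadjusted p under 0.05. The top of that range was Smg9, a regulator of the kinase that phosphorylates the helicase Upf1, with an adjusted p of 0.19 by edgeR. The 5 genes of the exon junction complex had a median of 0.34, with 0 called by either tool and Casc3 at 0.36 without overlap (adjusted p = 0.063 by edgeR). Of the 12 regulators of mTORC1, the kinase complex that controls TOP mRNA translation, the median was 0.16 and edgeR called 0. DESeq2 called Eif4ebp1, a translation repressor that mTORC1 phosphorylates, which differed by 1.41 (adjusted p = 0.073 by edgeR). Tsc1 (0.40) and Rps6kb1 (0.23) had an unadjusted p under 0.05 in the higher direction and Rptor (-0.26) in the lower. The 24 genes of ribosomal RNA synthesis and processing had a median of 0.23, with 23 above 0, 11 at an unadjusted p under 0.05 in the higher direction and 0 in the lower. edgeR called 0 and DESeq2 called Ddx21, a nucleolar helicase, which averaged 69.9 ± 13.5 CPM in Fh1-/- kidneys and 44.7 ± 1.40 CPM in Fh1+/+ kidneys, 0.63 apart on the log2 scale. Mybbp1a (0.51), Utp15 (0.46) and Cirh1a, the row of Utp4 (0.46), did not overlap between the groups and were not called. At day 5 edgeR and DESeq2 called 0 genes in each of these lists.

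**Figure D5:**
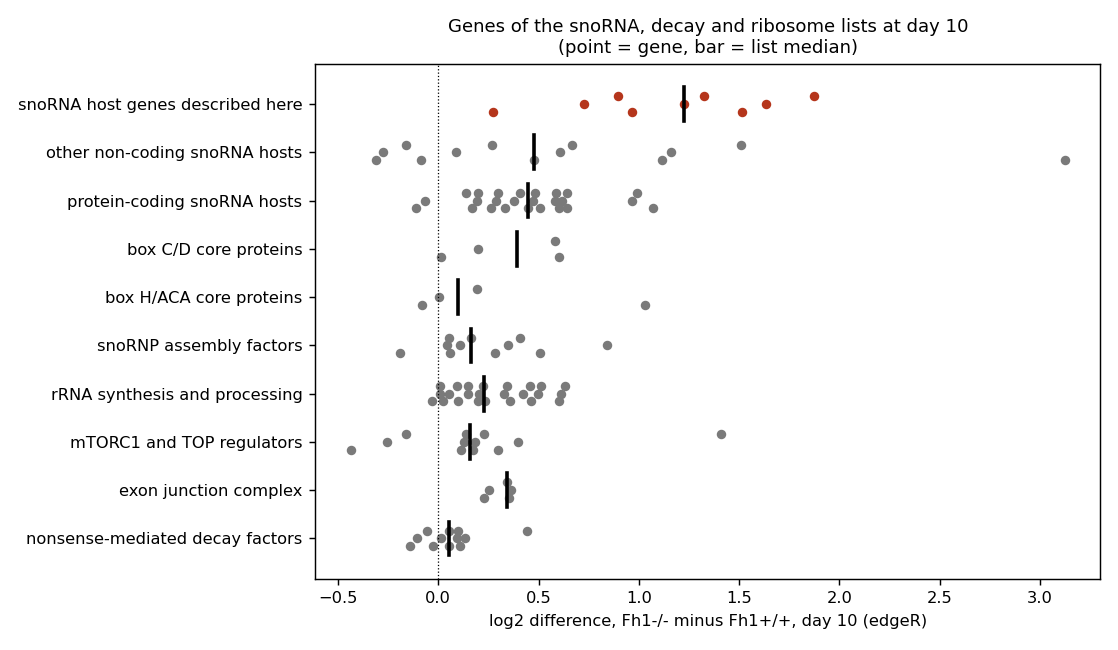
Log2 difference of Fh1-/- minus Fh1+/+ kidneys at day 10 (horizontal axis) for each tested gene of the lists (points), with the list median as a black bar. The medians run from 0.05 for nonsense-mediated decay factors to 0.45 for protein-coding and 0.48 for other non-coding snoRNA hosts, against 1.22 for the host genes described here, which were listed for this contrast.

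The plot of gene lists sets the 9 hosts beside the other lists, which were likewise chosen with earlier results known. Over the 20 libraries, the mean log2 level of the 9 genes was most alike to Aimp1 (Spearman 0.893), Chkb (0.890), Snhg7 (0.890), Naca (0.881), Npm1 (0.880), Epb4.1l4aos (0.871), Use1 (0.869) and Pigr (0.868). Over 14925 genes compared, the median coefficient was -0.00 and the 95th percentile 0.609. Snhg7 and Epb4.1l4aos are further snoRNA hosts and Npm1 encodes the nucleolar protein nucleophosmin, whereas the rest are in none of the lists. With group means removed, Pearson coefficients were 0.27 for Chkb, 0.30 for Snhg7 and 0.49 for Npm1, and at most 0.73 (Naca). Each of the 9 genes was compared in the same way with the mean of the other 8, which gave 0.632 for Snhg3 to 0.871 for Gas5. These coefficients describe libraries that share the same group differences and normalisation, and they carry no test.

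Markers of proximal tubule and distal nephron were abundant in every library. The sums of each marker list overlapped between the genotypes at day 10. For proximal tubule markers they did so only through Fh1-/- library 2, at 15315 CPM against 12731 to 16470 CPM in Fh1+/+ kidneys. The 11 leukocyte markers listed, 7 of them high enough to be tested, summed to between 67.6 and 161 CPM in Fh1-/- and between 141 and 249 CPM in Fh1+/+ kidneys. Proliferation markers summed to 28.9 to 52.7 CPM in Fh1-/- and 34.6 to 63.4 CPM in Fh1+/+ kidneys. The 8 proximal tubule markers had a median log2 difference of -0.44, the 7 leukocyte markers of -1.10 and the 7 proliferation markers tested of -0.93. The 7 distal nephron markers had a median of -0.11 and the 7 glomerular and endothelial markers of -0.63. Of the markers edgeR called 0, and DESeq2 called 1 leukocyte and 2 proliferation markers lower, beside 295 of 14360 genes called lower. At an unadjusted p under 0.05 by edgeR, 4 of 7 leukocyte and 5 of 7 proliferation markers were lower, beside 11.9% of all genes. So were 2 of 7 glomerular and endothelial, 1 of 7 distal nephron and 0 of 8 proximal tubule markers. In the higher direction 0 markers passed. The part of cell type and proliferation in the values of the host genes was not tested.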

How the data were processed

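The authors counted reads per gene and deposited whole-number counts for 20 kidney libraries, which are not normalised. They sequenced polyadenylated, stranded libraries, aligned them with STAR 2.6.0c to GRCm38, left out those of mapping quality under 20 and counted with Rsubread on a GENCODE annotation. No source used here names the strand setting of that step. Library totals of 16654829 to 25001294 reads give host genes 21 to 1579 reads. Here the counts were scaled by TMM (CPM; log2 CPM with a prior count of 2), filtered with filterByExpr and tested within each day with edgeR 4.0.16 in R 4.3.3 (quasi-likelihood, Benjamini-Hochberg over all genes, called at adjusted p under 0.01 and a log2 difference over 0.58). DESeq2 1.42.0, other scalings and filters, a replicate block, 1 fit of all libraries and leaving libraries out were alternatives. The script was tested on simulated data.

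The host genes, lists and tests were chosen with earlier results of these data known. Besides the 9 hosts, genes named were up to 4 per list with the smallest p at day 10 and at least 1 CPM, neighbours with a start within 5 kb or overlapping, and the 8 genes most alike over the libraries. Symbols of 7 listed genes matched by an older name. Annotation came from GENCODE vM21 and RefSeq tables of GRCm38.p6. No pairing of the libraries by replicate number was seen.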

Additional observations from a re-analysis of the deposited data

Results flagged for a closer look

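Snhg1 in Fh1-/- day 10 library 4 stood at 31.9 CPM, far from the other 4 libraries of its group at 13.7 to 18.3 CPM, with a gap of 0.749 of the group's range, above Dixon's critical value of 0.71. It was the 1 of 36 sets of 5 values that passed this test, where chance gives about 1.8.

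The genotype difference of 2410006H16Rik was larger at day 10 than at day 5, by 2.07 on the log2 scale, past the threshold of the interaction test. The gene was listed with this pattern known, so the value is a description.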

How the results depend on the processing

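The 9 host genes kept a positive day 10 difference under each alternative run. Counts of genes called were far less stable. At day 5, 5 genes were called, against 31 with DESeq2, 3 with library totals only, 9 at an adjusted p under 0.05 without a fold threshold, 0 with the replicate block and 8 with Y-linked transcripts as a covariate, an alternative chosen after seeing the data. At day 10, 8 genes and 0 hosts were called. DESeq2 called 796 and 7 hosts, a single fit of all libraries 838 and 7 hosts, an adjusted p under 0.05 406 and 5 hosts, no filter 16 and 1 host, library totals only 13, a filter of 1 CPM 3, omitting Fh1-/- libraries 1 and 3 together 2, and the replicate block 0. For the difference between the days, 5 genes and 1 host were called. DESeq2 called 272 and 5 hosts, an adjusted p under 0.05 161 and 5 hosts, the Y-linked covariate 62 and 2 hosts, library totals only 12, a filter of 1 CPM 11 and 2 hosts, no filter 10 and 2 hosts, omitting libraries 1 and 3 together 3 and 0 hosts, and the replicate block 0 and 0 hosts. No pairing by replicate number was seen (same-number correlations from -0.51 to 0.33), though such correlations cannot exclude that numbers follow litters. The causes were not tested.

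Leaving out each replicate in turn gave 2 to 4 calls at day 5, 0 to 235 calls and 0 to 2 hosts at day 10, and 3 to 296 calls and 1 to 4 hosts for the difference between the days, the highest of these last 4 without Fh1-/- day 10 library 2. At day 10 that made 2410006H16Rik and Snhg5 pass. Snhg8 at day 5 ranged from -0.15 to 0.066.

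Genes near 0 at day 10 changed sign. With library totals only, Fbl was at -0.17, Dkc1 at -0.022 and Nop10 at -0.19. Without libraries 1 and 3, Nop56 was at -0.0085, Fbl at -0.14, Dkc1 at -0.18, Nop10 at -0.24 and Rcc1 at -0.27. Nop10 was at -0.0028 with a filter of 1 CPM, -0.017 with the replicate block and -0.020 with the Y-linked covariate, which put Nhp2 at 0.023. With single libraries left out, Fbl ranged from -0.12 to 0.15, Dkc1 from -0.024 to 0.32, Nhp2 from -0.31 to 0.27 and Nop10 from -0.10 to 0.078. Library totals only moved the median of all genes at day 10 to -0.17 and that of the hosts to 1.01. Snhg5, with as few as 21 reads in a library, is the host most limited by depth.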
